A study of Bos taurus with 16 samples.

Results

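Matrix metalloproteinases (MMPs) and their tissue inhibitors (TIMPs) were examined in endometrial and blood CD14+ cells of pregnant cows. The 9 genes are MMP1, MMP2, MMP3, MMP9, MMP12, MMP14, TIMP1, TIMP2 and TIMP3. They were found by the gene name of a probe or by the symbol in brackets in its description, and they account for 11 of the 21475 probes on the array and for 9 of the 20602 gene names that the array carries. Hyphens in a bracketed symbol were ignored, which brought in the MMP12 probe and a second probe described as interstitial collagenase, LOC528263.

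The animals were 4 pregnant cows (Bos taurus) at days 164, 239, 242 and 248 of gestation, called animals 1 to 4 in that order. From each animal, cells of the interplacentomal endometrium, dispersed with enzyme, and mononuclear cells of blood left in the heart were sorted by flow cytometry for CD14, a coreceptor for lipopolysaccharide on monocytes and macrophages. Purity by flow cytometry was lower for the endometrial than for the blood cells, per the labels. RNA of both tissues of an animal was amplified, labeled with different dyes and hybridized together on an Agilent bovine array with 2 colours, on 2 arrays per animal, 1 on each of 2 slides. The dyes were swapped between the arrays of an animal in animals 1, 2 and 4, whereas in animal 3 the endometrial RNA carried Cy5 on both. There was no untreated or nonpregnant group. The samples came from slaughtered animals with no other treatment named in the labels, and day 164 was represented by animal 1 alone, so that day and animal cannot be told apart.

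MMPs are zinc-dependent endopeptidases that are made as inactive proenzymes and that cleave collagens, elastin, laminins and other proteins of the extracellular matrix. TIMPs bind the active site of MMPs and block it, and TIMP2 also takes part, with the membrane-anchored MMP14, in the activation of the MMP2 proenzyme. Macrophages are known sources of MMP9 and of MMP12, which is also called macrophage elastase, whereas MMP1, MMP2, MMP3 and MMP14 are typical products of fibroblasts and other stromal cells.

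The array reports each gene through an oligonucleotide of 60 bases. In the probes printed here in the 5′ to 3′ direction, as given by the array's design, the capitals mark the longest run that also occurs in a probe of another gene on the array. The MMP12 and TIMP1 probes are shown because they stand for the protease and the inhibitor whose patterns among the animals differed. The MMP3 probe was near background in 3 of 4 animals, and the LOC528263 probe is a second interstitial collagenase sequence that behaved unlike the MMP1 probe.
MMP12: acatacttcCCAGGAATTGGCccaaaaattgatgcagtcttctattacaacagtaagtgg
TIMP1: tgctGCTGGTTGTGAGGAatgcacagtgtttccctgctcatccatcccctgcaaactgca
MMP3: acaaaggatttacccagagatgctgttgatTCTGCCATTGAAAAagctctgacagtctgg
LOC528263: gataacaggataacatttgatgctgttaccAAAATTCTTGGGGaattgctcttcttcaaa
The shared runs were 12, 14, 14 and 13 bases long in these probes. Over all 11 probes the longest run shared with a probe of another gene was 12 to 14 bases of 60, and the longest run shared between probes of different members was 7 to 10 bases. In the RefSeq gene table of assembly ARS-UCD2.0, MMP12, MMP3 and MMP1 lie next to one another among the protein-coding genes, with MMP13 on the other side of MMP12.

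All 16 channels gave usable signal, with 65.2% to 82.9% of spots well above background by the scanner software, no saturated spot and 3 to 20 outlier spots per array. A probe is called detected in a channel where all of its spots were well above background there. With only 8 arrays from 4 animals, their number limits precision. The blood sample of animal 1 stood apart. Its levels correlated with those of the other blood samples with r of 0.81 to 0.84 across 16653 probes, against 0.94 to 0.97 among the other 3 blood samples. Endometrial samples correlated with r of 0.81 to 0.82 where animal 1 was included and of 0.80 to 0.90 otherwise. These correlations are across probes, which are not independent replicates. Each scanner file matched the value table of the other technical replicate of its animal and was read accordingly, and the directions given here rest on that reading.

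The study compared endometrium with blood to characterize macrophages of the pregnant uterus. Levels are normalized log2 intensities and ratios are log2 ratios of endometrium over blood within an animal, averaged over its 2 arrays. A probe was called where its fold change exceeded 2 and its adjusted p was 0.05 or less, which held for 11 of 16653 probes tested, or 0.0661%. None of the 9 genes was called with limma. The methods' analysis of variance was run on the same ratios, not on the authors' log2 values. By it none of the 9 genes was called, and none passed the unadjusted threshold either. In limma, with the same fold change and an unadjusted p of 0.05 or less (the unadjusted threshold), 2 of the 9 genes passed, MMP12 and TIMP2, both with higher levels in endometrium. Of all probes tested, 5.27% passed that threshold with higher levels in endometrium and 5.11% with higher levels in blood. The mean log2 ratio was above 0 for 10 of the 11 probes, with a median of 0.93, against 51.9% of all 21475 probes with a median of 0.0056. The probes of MMP3 and LOC528263 were too dim to be tested, and 9 of the 11 probes were tested. The lead probe of MMP2 was tested on the strength of its endometrial channels alone.

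**Figure D1:**
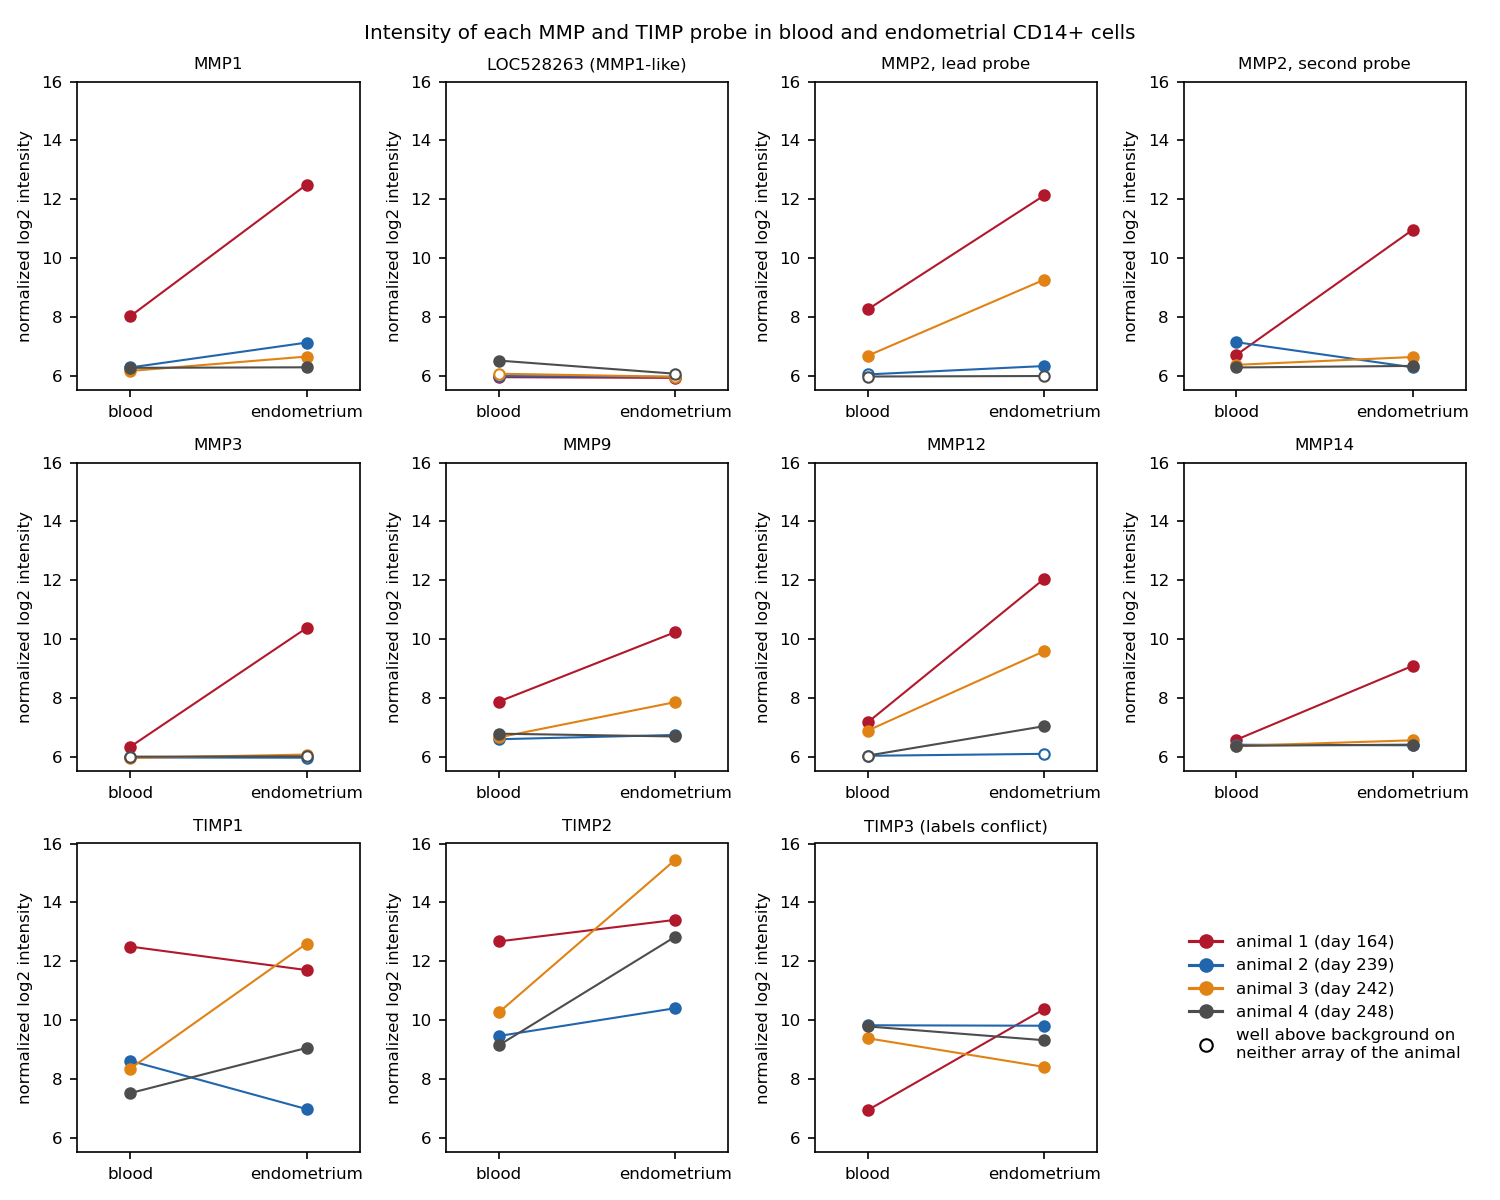
Each panel gives a probe's normalized log2 intensity (vertical axis) in the blood and endometrial CD14+ cells of each animal, joined by a line, with open symbols where the probe was detected on neither array of that animal. Animal 1 has the highest endometrial point for the MMP genes other than LOC528263, and animal 3 for TIMP1 and TIMP2.

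Among the collagenases, MMP1, which cleaves fibrillar collagens, had endometrial levels of 12.50, 7.13, 6.65 and 6.29 and blood levels of 8.02, 6.28, 6.16 and 6.27 in animals 1 to 4. The endometrial sample of animal 1 was far above the other 3, its blood sample was the highest of the blood samples, and the ranges of the tissues overlapped. The log2 ratios were 4.48, 0.85, 0.49 and 0.02, with a mean of 1.46 (SE 0.78, adjusted p = 0.423, n = 4). Without animal 1 the mean was 0.45. The LOC528263 probe was detected in no endometrial channel (0 of 8) and in blood on both arrays of animal 4 alone (2 of 8). Its mean blood signal was 1.06-fold a limit on the endometrial side, set per array by the dimmest signal well above background. That mean includes animals 1 to 3, whose blood was itself at background, so it is not a lower bound for them. Its levels ran from 5.93 to 6.07 in endometrium and from 5.95 to 6.51 in blood, and its endometrial level in animal 1, 5.93, was the lowest of the 4. The mean log2 ratio of LOC528263 was -0.15, and with the authors' log2 values it was -1.47, with -3.68 in animal 4 and -1.47 in animal 3.

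The gelatinases MMP2 and MMP9 cleave denatured collagen and type IV collagen of basement membranes. The lead probe of MMP2, the brighter of its probes, had endometrial levels of 12.13, 6.33, 9.26 and 5.99 and blood levels of 8.25, 6.04, 6.68 and 5.97. It was high in the endometrium of animals 1 and 3 and at background in both tissues of animal 4. The mean log2 ratio was 1.69 (SE 0.72, adjusted p = 0.344), with 3.87, 0.28, 2.58 and 0.02 in animals 1 to 4. The other MMP2 probe gave 4.26, -0.86, 0.27 and 0.05, with a mean of 0.93 (SE 0.87, adjusted p = 0.638), so the probes of this gene disagreed in animals 2 and 3. Without animal 1 its mean was -0.18, and that of the lead probe was 0.96.

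MMP9 was detected throughout, with endometrial levels of 10.24, 6.74, 7.86 and 6.69 and blood levels of 7.87, 6.59, 6.66 and 6.78. Both tissues were highest in animal 1, and in animal 4 the endometrium was slightly below the blood. The log2 ratios were 2.36, 0.15, 1.20 and -0.10, with a mean of 0.90 (SE 0.46, adjusted p = 0.405). MMP9 is also stored in the granules of neutrophils. The summed linear level of the 7 granulocyte markers on the array ran from 754.5 to 13000 in endometrium and from 2405 to 146900 in blood, 0 of the 6 tested passed the unadjusted threshold, and CAMP was detected in no channel. The largest ratios among them were those of CSF3R (-1.34) and S100A8 (-1.30), and they differed by animal. CSF3R had -4.81, -0.19, -0.16 and -0.19 in animals 1 to 4, and S100A8 had -4.18, -3.87, 2.21 and 0.63. Of the 6 tested, 1 had a mean ratio above 0, LTF at 1.17. The part of granulocytes in the MMP9 result was not tested.

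MMP3, or stromelysin, which cleaves proteoglycans, laminin and fibronectin and activates other proenzymes, was detected in animal 1 alone, on both arrays and in both tissues. There its level was 10.38 in endometrium and 6.34 in blood, a log2 ratio of 4.04. In the other 3 animals its levels lay between 5.96 and 6.07 in either tissue, where it was not well above background. The mean log2 ratio of 1.04, or 1.65 with the authors' log2 values, is a value without a test, since the probe did not pass the filter.

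MMP12, which cleaves elastin, had endometrial levels of 12.05, 6.10, 9.59 and 7.04 and blood levels of 7.17, 6.03, 6.89 and 6.04. The endometrial level exceeded the blood level in 4 of 4 animals, by most in animals 1 and 3, while in animal 2 the probe was detected in neither tissue and in animal 4 in the endometrium alone, so that the ratio of animal 4 and the mean are measured against blood at background. The log2 ratios were 4.88, 0.07, 2.70 and 1.00, with a mean of 2.16, or 4.47-fold (SE 0.81, unadjusted p = 0.0411, adjusted p = 0.31). The ratio depended on how dim signals were treated. With the authors' log2 values it was 4.16 (adjusted p = 0.0575), with 5.74, 1.46, 4.73 and 4.70 in animals 1 to 4, and with the scanner's processed signal it was 4.25 (adjusted p = 0.0655). Without animal 1 it was 1.26, and the unadjusted threshold was then missed, as it was without animal 3 (1.98) and without animal 4 (2.55).

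MMP14, the membrane-anchored activator of MMP2, was detected throughout. Its endometrial levels were 9.09, 6.39, 6.56 and 6.41, and its blood levels lay between 6.37 and 6.58. The endometrium of animal 1 stood above a nearly uniform set of other samples. The mean log2 ratio was 0.68 (SE 0.50, adjusted p = 0.541), of which 2.51 came from animal 1 and -0.02 to 0.19 from the others. Without animal 1 it was 0.071. With the authors' log2 values the mean was 1.13 for MMP14 (adjusted p = 0.514), 2.28 for MMP1 (adjusted p = 0.248) and 3.23 for the lead probe of MMP2 (adjusted p = 0.172), each over 1.5 times the value given above, and none was called.

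Of the inhibitors, TIMP2 was detected in all 16 channels. Its endometrial levels were 13.41, 10.40, 15.45 and 12.84 and its blood levels were 12.67, 9.46, 10.26 and 9.15. The endometrial level was the higher in 4 of 4 animals, although the blood level of animal 1 exceeded the endometrial level of animal 2. The log2 ratios were 0.73, 0.94, 5.19 and 3.69, with a mean of 2.64, or 6.23-fold (SE 0.83, unadjusted p = 0.0220, adjusted p = 0.273), and with the authors' log2 values the mean was 2.72 (adjusted p = 0.215). TIMP2 was called in 2 alternative fits, which took the 8 array ratios, 2 per animal, with animal as a random block. Each fit used a single correlation between the arrays of an animal, estimated over all probes tested. The arrays of an animal thus counted as partly independent. With a dye term the mean of TIMP2 was 2.60 (SE 0.62, adjusted p = 0.0416). With a slide term it was 2.64 (SE 0.62, adjusted p = 0.0488). These fits called 792 and 501 of the 16653 probes tested, against 11 in the fit with 1 ratio per animal. Without animal 3 the mean was 1.79, and the unadjusted threshold was missed then and without animal 4 (2.29). On the slide of technical replicate 1 alone it was 2.49 and on that of technical replicate 2 it was 2.79.

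TIMP1, a soluble inhibitor of most MMPs, did not differ in a common direction. Its endometrial levels were 11.70, 6.97, 12.60 and 9.05 and its blood levels were 12.50, 8.61, 8.35 and 7.52. The blood level was the higher in animals 1 and 2, and the endometrial level was the higher in animals 3 and 4. The log2 ratios were -0.80, -1.64, 4.25 and 1.54, with a mean of 0.84 (SE 1.00, adjusted p = 0.728), and without animal 3 the mean was -0.30. The largest ratios of both TIMP1 and TIMP2 were those of animal 3, the animal without a dye swap. In animal 3 a dye effect and a difference between tissues cannot be told apart. With a dye term the mean was 0.82 for TIMP1 and 2.60 for TIMP2. In the 3 animals with a swap the arrays of opposite dye differed by at most 0.20 for TIMP1 and 0.38 for TIMP2. Those arrays also lay on different slides, so dye and slide cannot be told apart in them. The part of dye in the ratios of animal 3 was not tested.

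The identity of the TIMP3 probe is uncertain, because its description names TIMP3, the inhibitor that is bound to the matrix, whereas its gene name and accession are those of CHRNA3, a subunit of the nicotinic acetylcholine receptor. The probe had endometrial levels of 10.37, 9.81, 8.41 and 9.31 and blood levels of 6.94, 9.82, 9.38 and 9.78. Blood of animal 1 was far below the other blood samples. The log2 ratios were 3.43, -0.02, -0.97 and -0.47, with a mean of 0.49 (SE 0.77, adjusted p = 0.802), and the mean was -0.49 without animal 1. Another probe with the CHRNA3 accession gave 2.52, 3.81, 1.82 and 1.65, with a mean of 2.45 (SE 0.41, adjusted p = 0.235), so the probes under that name did not vary together.

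**Figure D2:**
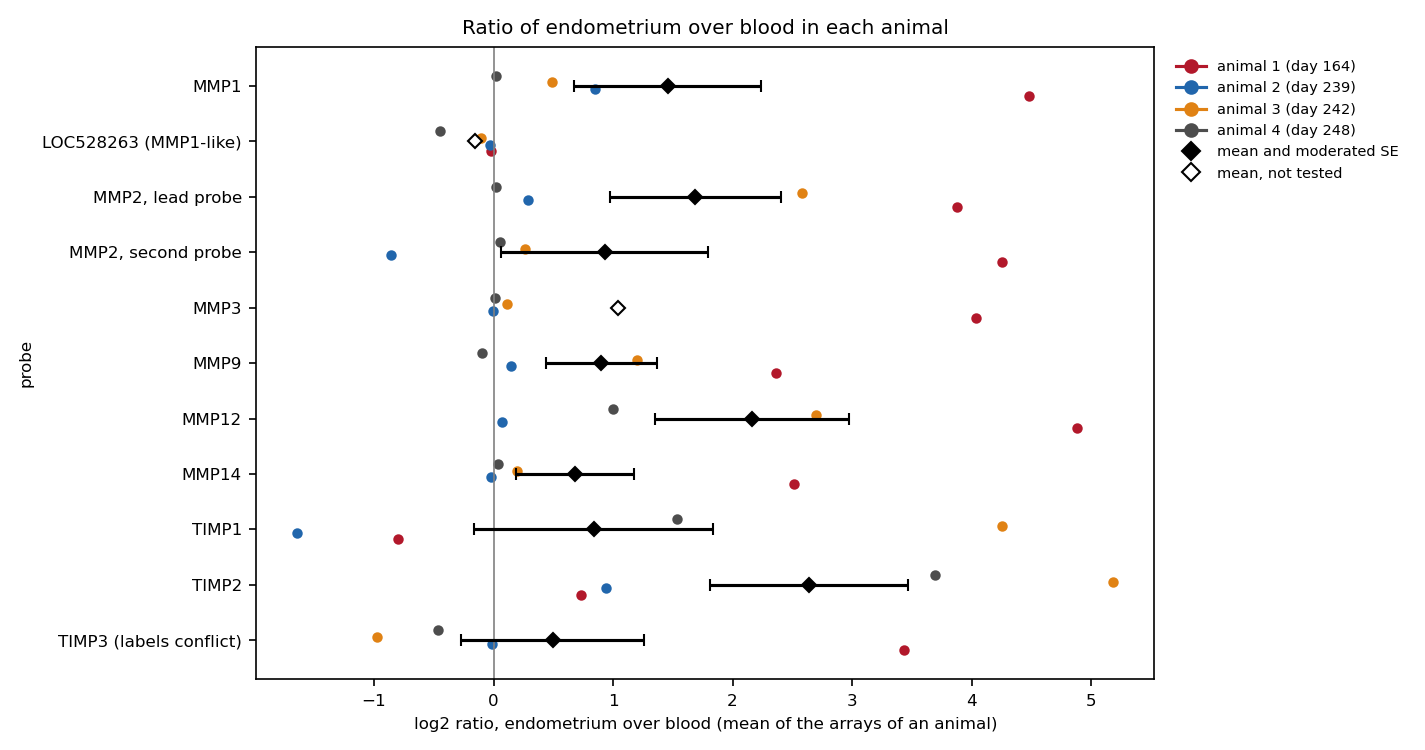
Log2 ratios of endometrium over blood (horizontal axis) are shown for each probe (vertical axis), with circles for the 4 animals and diamonds for the mean with its moderated SE, open where the probe was not tested. The points of animal 1 lie at 2.36 or above for the 7 probes of named MMP genes, while those of TIMP1 and TIMP2 lie highest in animal 3.

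The spread of the members was a spread among animals and not among arrays. The ratios of the 2 arrays of an animal differed by at most 0.38 for any of the 11 probes, while the SD over animals was 1.12 to 2.65 for the 9 probes tested. The ratio was the highest in animal 1 for 7 of 7 probes of MMP genes, LOC528263 left out, whereas it was the highest in animal 1 for 21.5% of all probes tested. With the authors' log2 values it was 6 of 7, the lead probe of MMP2 being the highest in animal 3 (5.43, against 4.25 in animal 1), beside 21.2% of all probes tested. The endometrial level was also the highest in animal 1 for 7 of 7 (18.9% of all probes tested), as was the blood level for 6 of 7 (30.6% of all probes tested). The ratio and the endometrial level of TIMP1 and TIMP2 were the highest in animal 3, which held for 31.4% and 28.6% of all probes tested. Over the lead probes of the 8 genes tested, the median log2 ratios of animals 1 to 4 were 2.97, 0.11, 1.89 and 0.029, where the median of all probes tested lay between -0.09 and -0.02. In animals 2 and 4 the ratios of these MMP probes lay between -0.10 and 0.28, apart from MMP1 (0.85) and the second MMP2 probe (-0.86) in animal 2 and MMP12 (1.00) in animal 4. Those ratios of dim probes depended on the processing. With the authors' log2 values animal 2 had 3.00 for the lead probe of MMP2, 2.38 for MMP1 and 1.46 for MMP12, and animal 4 had 4.70 for MMP12. The second MMP2 probe moved the other way in animal 2, to -2.42. Blood of animal 2 was at background for the lead probe of MMP2 and for MMP12, as was blood of animal 4 for MMP12.

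Over the 8 animal-by-tissue means, Pearson's r between lead probes was 0.999 for MMP3 and MMP14, 0.977 for MMP2 and MMP9, 0.963 for MMP2 and MMP12, and 0.846 for TIMP1 and TIMP2. Between proteases and inhibitors it was 0.767 for MMP2 and TIMP1, 0.737 for MMP12 and TIMP2, 0.709 for MMP12 and TIMP1, and 0.375 for MMP14 and TIMP2, and it was -0.593 for TIMP1 and TIMP3. These are descriptions over 8 points that share the arrays of 4 animals, and in the MMPs the endometrial sample of animal 1 is the highest of the 8 points. MMP3 was detected in animal 1 alone, so that its other points lie at background and its r rests on that animal. MMP14 was at 9.09 in the endometrium of animal 1. No other endometrial level exceeded 6.56 and no blood level exceeded 6.58. Each r of MMP14, those with other genes included, thus rests on that sample. The genes most like each member were sought in the same way among the other named genes tested. For MMP12 they were DCN (0.990), the proteoglycan decorin, and FLRT2 and CCN3 (0.9895 each). For MMP14 they were COL6A1 (0.999), a chain of type VI collagen, REM1 (0.997) and IRX6 (0.997). For MMP2 they were PRELP (0.998), a proteoglycan of connective tissue, FZD1 (0.996) and HSD11B2 (0.994), and for MMP1 they were SERPINF1 (0.998), PGF (0.994) and CADM3 (0.993). SFRP4 (0.998), MEDAG (0.993) and RECK (0.991), a membrane-anchored inhibitor of MMPs, were most like MMP9. Other genes stood beside the inhibitors. CFB (0.962) and CHMP3 (0.962) were most like TIMP2, MOB1B (0.991), C29H11orf24 (0.972) and CHCHD5 (0.971) were most like TIMP1, and HEXIM1 (0.941), CHST1 (0.931) and MBD3 (0.926) were most like the TIMP3 probe.

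Of the other MMPs and TIMP4, 14 genes had a probe, of which 8 were tested, 0 passed either threshold, 3 had a mean ratio above 0, and the median log2 ratio was -0.02, as it was for all probes tested. MMP7, MMP8, MMP20 and MMP27 were detected in no channel of either tissue. MMP13, another collagenase, had the largest mean ratio at 0.67 (SE 0.81, adjusted p = 0.73), with 3.41, -0.96, -1.04 and 1.28 in animals 1 to 4. MMP23B had a mean of 0.58 (SE 0.39, adjusted p = 0.514) and was detected in 4 of 8 endometrial and 0 of 8 blood channels. Its mean endometrial signal, which includes the channels at background, was 1.49-fold a limit set for blood as described for LOC528263. Its ratios were 0.48, -0.055, 1.89 and -0.0069 in animals 1 to 4, so that this value rests mainly on animal 3. The MMP16 probe had a description that named another gene, and it is among the 8 tested.

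Of the related ADAM and ADAMTS proteases, 9 of 15 with a probe were tested and 1 passed the unadjusted threshold. It was ADAMDEC1, a secreted protease of macrophages and dendritic cells, with a mean log2 ratio of 1.25 (SE 0.49, adjusted p = 0.324). Its ratios were 0.81, 1.29, 0.01 and 2.89 in animals 1 to 4, above 0 in 4 of 4 but close to 0 in animal 3. The probe was detected in 6 endometrial and 3 blood channels, so that the mean is measured partly against blood at background. The median of the list was 0.74, against -0.02 for all probes tested. By animal it was 0.01, 0.04, 2.05 and -0.03 in animals 1 to 4, so that only animal 3 had a raised median. Among 14 activators, receptors and other inhibitors tested, 1 passed with higher levels in endometrium and 3 with higher levels in blood, and the median was -0.07. PLAT, the tissue plasminogen activator, had ratios of 4.85, 0.87, 3.77 and 1.98, with a mean of 2.87 (SE 0.69, adjusted p = 0.262). The 3 with higher levels in blood were PLAUR, the receptor of urokinase, at -1.52 (adjusted p = 0.32), SERPINB2, an inhibitor of plasminogen activators, at -1.85 (adjusted p = 0.293), and LCN2, which binds MMP9, at -1.11 (adjusted p = 0.329). None of these lists had a probe called after adjustment.

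Of the proteins on which MMPs act, 17 of 22 genes with a probe were tested, and 14 had a mean ratio above 0, with a median of 1.44 against -0.02 for all probes tested. The unadjusted threshold was passed by COL1A1 (2.51, SE 0.90, adjusted p = 0.298), LAMC1 (1.59, SE 0.45, adjusted p = 0.262) and SPP1 (3.69, SE 0.91, adjusted p = 0.262), with higher levels in endometrium, and by none with higher levels in blood. SPP1 encodes osteopontin, a phosphoprotein of the matrix that macrophages also secrete. In animals 1 to 4 the median log2 ratio of the list was 3.31, -0.04, 0.90 and 0.73, and the ratio was the highest in animal 1 for 10 of 17 and in animal 3 for 5 of 17.

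The stromal markers shared with the probes of named MMP genes a highest ratio in animal 1. All 9 on the array were tested, 3 passed the unadjusted threshold (COL1A1, DCN and THY1), and the ratio was the highest in animal 1 for 9 of 9 (7 of 9 with the authors' log2 values), with medians of 5.22, 0.01, 1.65 and 0.92 in animals 1 to 4. The summed linear level of the list ran from 695.6 to 103800 in endometrium and from 666.8 to 2109 in blood, and each marker was detected in some channel of both tissues. COL1A1, COL1A2 and COL3A1 stand in both the stromal and the substrate list. Epithelial markers, of which 7 of 10 passed the unadjusted threshold (KRT8, KRT18, CDH1, EPCAM, CLDN3, MUC1 and SERPINA14), had their highest ratio in animal 3 for 10 of 10, as TIMP1 and TIMP2 did and as did 6 of 6 granulocyte and 7 of 8 trophoblast markers, with a summed level of 12750 to 110200 in endometrium against 1281 to 3526 in blood. All 8 trophoblast markers passed the unadjusted threshold and 5 of them were called (CSH1, PRP1, PRP6, PAG4 and PAG7), with summed levels of 14820 to 49710 against 875.9 to 1786, and PAG17 was detected in no blood channel. The part of such cells in the MMP and TIMP levels was not tested, and in bulk samples a change in the number of cells of a type and a change in RNA per cell cannot be told apart.

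**Figure D3:**
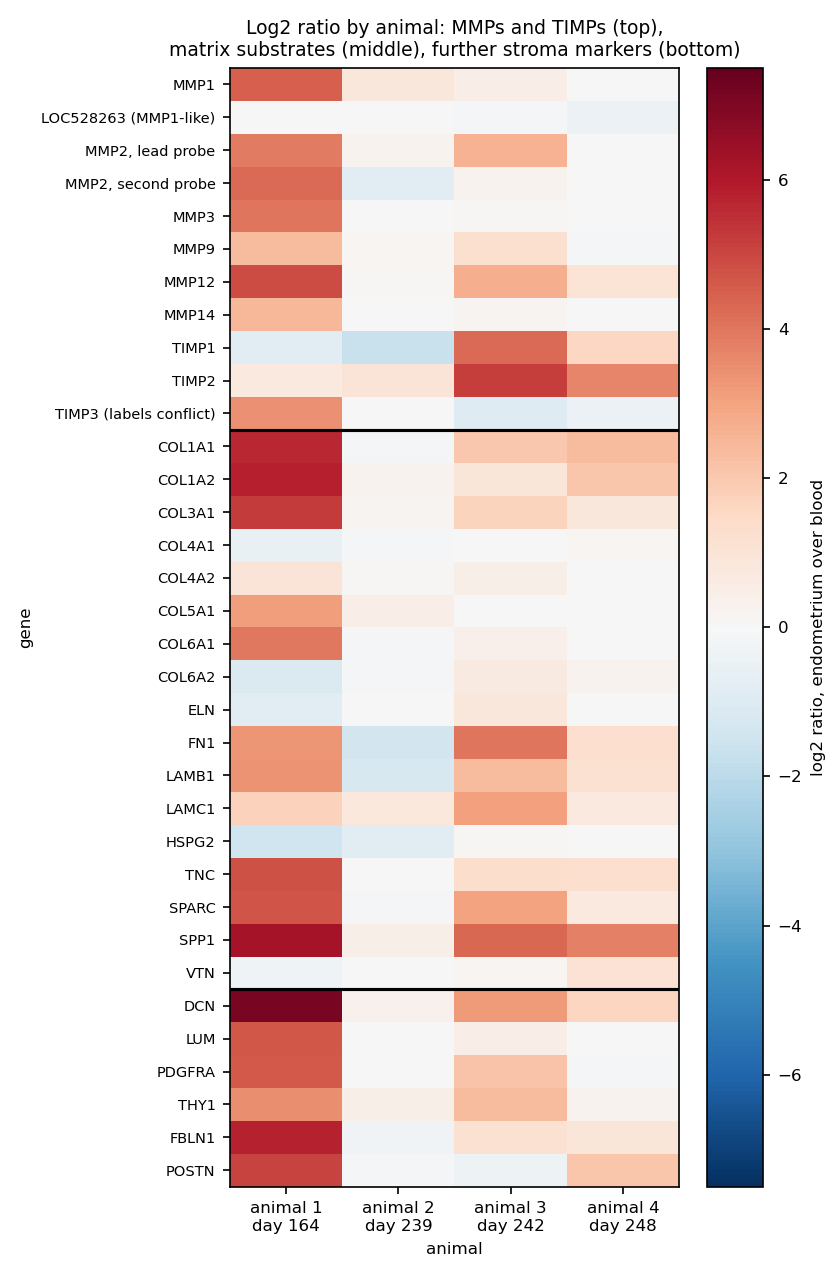
Colours give the log2 ratio of endometrium over blood in each animal (columns) for the MMP and TIMP probes (top block), the matrix substrates tested (middle block) and the stroma markers that are not among the substrates (bottom block). The MMP rows are deepest in animal 1, as are those of COL1A1, DCN and the other stroma markers, whereas TIMP1 and TIMP2 are deepest in animal 3.

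Markers of monocytes and macrophages had their highest ratio in animal 1 for 2 of 9 and in animal 4 for 5 of 9, although, as with the MMP probes, the endometrial level was the highest in animal 1 for 8 of 9 and the blood level for 9 of 9. Of the 11 genes listed, LYZ and MRC1 had no probe assigned, the LYZ probes being left out because their names conflicted. The other 9 were tested. Of these, 7 passed the unadjusted threshold with higher levels in endometrium (CD68, CSF1R, AIF1, CD163, MSR1, C1QA and C1QB). The median log2 ratio of the 9 was lowest in animal 1 (1.40) and highest in animal 4 (3.62). CD14, on which the cells were sorted, was detected in all channels, with log2 ratios of -2.08, 0.11, 0.51 and 0.13 and a mean of -0.33 (adjusted p = 0.782), which was 0.25 without animal 1. The summed level of the list was 11860 to 151200 in endometrium and 2529 to 63990 in blood. Of the other cell types, 5 of 9 markers of natural killer and T cells (GZMA, GZMB, NKG7, CD3E and CD247) and 1 of 7 of endothelium (VWF) passed with higher levels in endometrium, and 2 of 4 of B cells passed with higher levels in blood (CD79B and MS4A1).

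**Figure D4:**
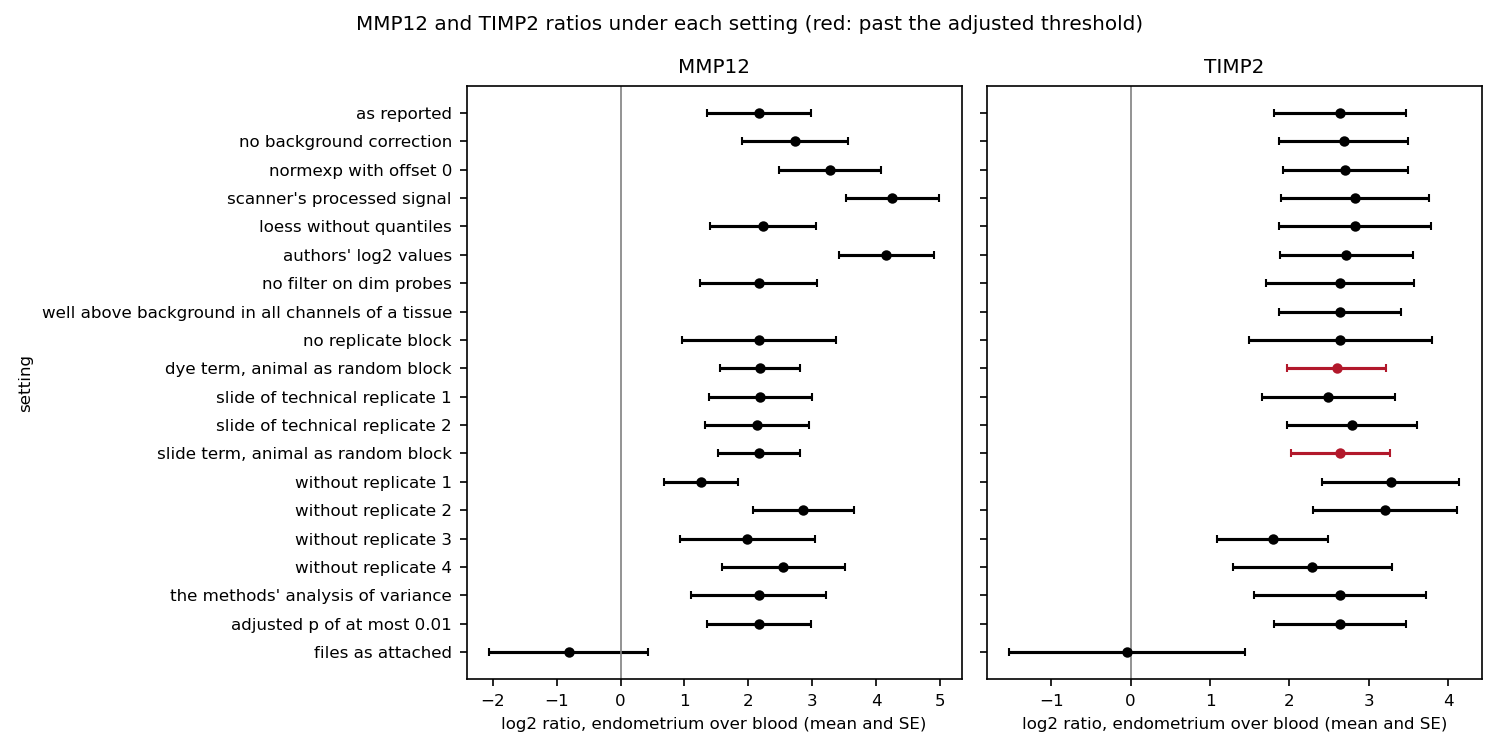
The mean log2 ratio (horizontal axis) of MMP12 (left) and TIMP2 (right) is given with its SE for each way of processing or testing the arrays (vertical axis), red where the call passed the adjusted threshold. MMP12 is at 2.16 as reported. It runs from 1.26 without animal 1 to 4.25 with the scanner's processed signal, and is -0.81 with the files as attached. TIMP2 stays between 1.79 and 3.27 in all fits but that of the files as attached (-0.045). TIMP2 is red under the dye and the slide term.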

How the data were processed

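RNA from CD14+ cells of 4 cows was measured on 8 arrays with 2 colours. The authors deposited scanner files with the median intensity of each spot and of its background in each dye, unnormalized, and the scanner's processed intensity. Their methods and labels name Feature Extraction 9.5, and the file headers 10.5.1.1. The authors' value table holds log2 values after lowess within arrays and quantile normalization. Each of its columns matched, within 0.001 over the sorted spots of a probe, the file of the animal's other technical replicate in the labeled dye at 100% of probes, against at most 0.0186% for the sample's own file, so files were read in that way. Spots of a probe often stood exchanged between the table and the files, which leaves probe means as they are.

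Median intensities were corrected by normexp with an offset of 50, which compresses ratios of dim probes, then normalized by loess and by quantiles with limma 3.58.1 (statmod 1.5.0) in R 4.3.3. Control and outlier spots were left out and spots averaged. For the limits set by the dimmest signal, quantiles were applied to the mean of the 2 dyes and not to each channel. Ratios within animals, averaged over 2 arrays, were tested against 0 with lmFit and eBayes and adjusted by Benjamini and Hochberg over the 16653 probes that were well above background in at least 4 of 8 channels of a tissue. An exact permutation test over 4 animals cannot give a p under 0.125. The labels number both tissues of an animal alike, and the deviations of its tissues from the tissue means correlated with r of 0.62, 0.36, 0.21 and 0.47.

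All probes of the members are given, the brightest being the lead probe. From the pathway and marker lists, genes past the unadjusted threshold are named, else those with the largest ratios. Names came from the RefSeq table of ARS-UCD2.0 by accession, gene identifier or name, and 7585 of 21475 probes kept the name of the array's design. The 318 probes whose name and bracketed symbol were different genes of that table were left out of lists. The MMP16 probe was kept, because the symbol in its description is not in that table. A result for 1 gene is not reported here. The members and lists were chosen with earlier results of these data known. The fit was tested on simulated ratios, and alternatives changed the background, normalization, filter, pairing, dye, slide, animals, test and reading of the files.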

Additional observations from a re-analysis of the deposited data

Results flagged for a closer look

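Of 33 sets of 4 animals examined for a value far from the other 3 (11 probes, each with its endometrial level, blood level and log2 ratio), 10 passed Dixon's critical value for 4 values, as about 1 in 20 would by chance, and all 10 were those of animal 1. The sets are not independent, since they share the animals and a ratio is the difference of its levels. In endometrium the log2 level of animal 1 was 12.50 for MMP1, where the nearest other animal had 7.13. It was 10.97 for the second MMP2 probe against 6.64, 10.38 for MMP3 against 6.07, and 9.09 for MMP14 against 6.56. In blood it was 8.02 for MMP1 against 6.28, 6.34 for MMP3, and 7.87 for MMP9 against 6.78. The blood level of the TIMP3 probe was 6.94 in animal 1, below the nearest of the others at 9.38. The log2 ratio of animal 1 was 4.04 for MMP3, the others being at 0.11 or below, and 2.51 for MMP14, the others being at 0.19 or below.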

How the results depend on the processing

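Several probes were near background, and the ratios of dim probes moved with the background correction, with the animals included and most with the reading of the files. Alternatives gave 170 values of the 11 probes, of which 117 differed from the reported value. Of those 117, 106 kept their direction, and 2 of the 170 were called, both of TIMP2. With the files as attached, 8 probes reversed: MMP1 (-1.21), MMP2 (-0.40 and -0.80), MMP9 (-0.30), MMP12 (-0.81), MMP14 (-0.58), TIMP2 (-0.045) and TIMP3 (-0.98). Without 1 animal the second MMP2 probe ran from -0.18 to 1.525 and TIMP3 from -0.49 to 0.98, both reversed without animal 1, and TIMP1 from -0.30 to 1.66, reversed without animal 3. The causes were not tested.

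Calls over all probes numbered 11, and 50 without background correction, 161 with an offset of 0, 171 with the processed signal, 5 without quantiles, 224 with the authors' log2 values, 5 without a filter, 44 with the strict filter, 20 and 5 on the slides of technical replicates 1 and 2, 792 with a dye term, 501 with a slide term, and 0 by the methods' analysis of variance, at an adjusted p of at most 0.01, with the files as attached, and when any 1 animal was left out. The fits with a dye or slide term count the 2 arrays of an animal with an estimated correlation. Without the pairing of tissues within animals (no replicate block), 4 were called. The methods' analysis of variance was run on the reported ratios, not on the authors' log2 values.

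Members called numbered 0, and 1 with a dye or a slide term. Members past the unadjusted threshold numbered 2, and 4 with an offset of 0, the processed signal, the authors' log2 values, a dye term or a slide term, 1 without a filter or with the strict filter, 0 without the pairing, by the methods' analysis of variance or with the files as attached, and 0 to 3 without 1 animal. Probes past it numbered 1729, and 2722 with an offset of 0, 2670 with the authors' log2 values, 1124 without the pairing, 687 by the methods' analysis of variance, 121 with the files as attached, and 916 to 2258 without 1 animal. MMP3 and LOC528263 were tested only without the filter.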
